A study of Rattus norvegicus with 16 samples.

Results

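The genes described here encode the proteins of the mitochondrial ribosome, chosen by symbol: a name starting with Mrpl (large subunit) or Mrps (small subunit) and a number, with a mean CPM (counts scaled to the library total) of at least 1 in the male or the female table. Of 32754 gene rows in each table, 77 carried such a symbol and 74 met the level, 45 named for the large subunit and 29 for the small. They were followed in 16 brain RNA libraries from rats of 8 months, a set whose series title names the nucleus ambiguus, the motor nucleus that serves the larynx and pharynx. The 4 groups, each of 4 animals with their own numbers, were male wild type (20, 22, 23 and 24), male Pink1-/- (17, 18, 19 and 25), female wild type (64, 111, 504 and 980) and female Pink1-/- (548, 602, 736 and 983). The labels name no strain and no treatment, and the comparison asks what loss of the mitochondrial kinase PINK1 does to the transcriptome of each sex. The labels give each library an animal number but do not describe litters or dissection days, so the p-values measure the spread between these libraries.

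Mitochondria keep their own ribosome for the few proteins, all of the respiratory chain and ATP synthase, that are still read from mitochondrial DNA. Its ribosomal RNAs come from that DNA, while every protein of both subunits is encoded in the nucleus, made in the cytosol and imported. Some of these proteins have counterparts in the bacterial ribosome, others exist only in mitochondria. The kinase PINK1 gathers on damaged mitochondria and starts their removal by mitophagy.

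Pink1 itself fell from 69.6 ± 6.04 CPM (SD, n = 4) to 1.88 ± 0.347 in males and from 128 ± 9.41 to 7.06 ± 3.23 in females, with no overlap in either sex. Total counts ran from 10959412 to 13691846 in the male libraries and from 13875621 to 26570195 in the female ones. The tables stood apart in composition: the 7SL RNA gene and its copy took 0.282 to 4.28% of male and 9.14 to 15.8% of female counts, and a pair of mitochondrial clone loci took 36.5 to 44% and 1.77 to 11.9%. Among males, Pink1-/- animal 17 had the highest 7SL share, 4.28%, with the next library at 1.45%. Animal 17 also had the lowest male share of clone loci, 36.5%. The lowest male 7SL share, 0.282%, was that of wild-type animal 23. The cholinergic motor neuron markers, of which 7 of 7 were high enough to test in females and 6 of 7 in males, were uneven, with a summed level of 81.4 to 377 CPM among male and 40.3 to 514 CPM among female libraries. Folr1, a choroid plexus marker, was at 0 in all 16, while Ttr, another, reached 1.57 CPM in female and 1.04 CPM in male libraries. These are bulk tissue libraries, in which fewer cells of a type and less RNA per cell cannot be told apart, and the part that tissue composition played in the results was not tested.

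In both sexes the summed level of each subunit overlapped between the genotypes. The 45 large-subunit genes together made up 537 ± 25.7 CPM (SD, n = 4) in male wild type and 520 ± 21.5 CPM in male Pink1-/- animals, and the 29 small-subunit genes 370 ± 11.1 and 365 ± 8.52 CPM. The male ranges overlapped for both subunits, 514 to 574 against 505 to 551 CPM for the large and 355 to 379 against 355 to 375 CPM for the small. In females the large-subunit sum was 704 ± 37.3 CPM in wild type and 680 ± 17.9 CPM in Pink1-/- libraries. The small-subunit sum was 510 ± 13.5 and 485 ± 7.14 CPM, with 1 wild-type library (980, at 491 CPM) inside the Pink1-/- range of 478 to 495 CPM. The ratio of the large sum to the small one lay between 1.40 and 1.51 in all male and between 1.33 and 1.46 in all female libraries.

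**Figure D1:**
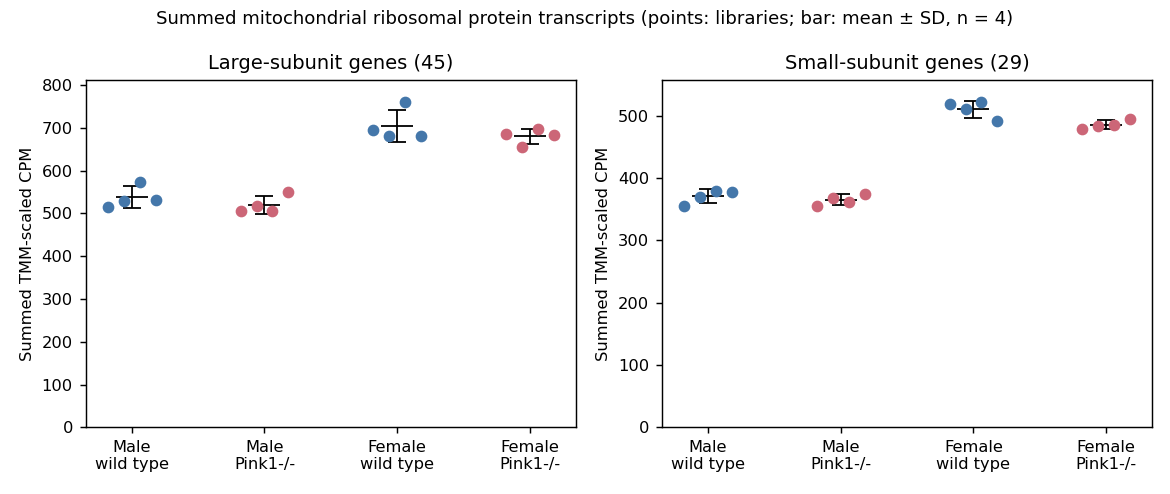
Summed TMM-scaled CPM of the 45 large-subunit genes (left) and the 29 small-subunit genes (right) in each library; points are libraries (blue wild type, red Pink1-/-), bars the mean and SD of n = 4. Within each sex the genotypes overlap for both subunits, the female small-subunit sums only through wild-type animal 980.

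Gene by gene, no member passed an adjusted p of 0.05 in males with the quasi-likelihood test of edgeR, adjusted over 13770 genes of which 2.3% were called. The smallest adjusted p belonged to Mrps11, at 0.0602, and with DESeq2 or the likelihood ratio test of edgeR 1 member passed, which was Mrps11. At an unadjusted p under 0.05 there were 10 of 74 members, 4 higher and 6 lower in Pink1-/- animals, a share of 13.5% beside 26.2% of all genes tested. The Pink1-/- and wild-type libraries did not overlap for 5 members, or 6.76%, beside 15.2% of all genes. The median log2 fold change was 0.01 for the large and -0.08 for the small subunit, beside 0.01 for all genes, and 38 of 74 members (51.4%) lay below 0, beside 49.2%.

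The 95% intervals give how large a male change the data still allow. For 70 of the 74 genes the whole interval stayed within a 2-fold change either way, as for 87.6% of all genes tested, and for 57 it stayed within 1.5-fold (60.4% of all genes). The exceptions to the wider limit were Mrpl43, Mrpl33, Mrpl14 and Mrps11. Mrpl33 and Mrpl14 rested on few counts, 9 to 23 and 10 to 31 per male library.

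**Figure D2:**
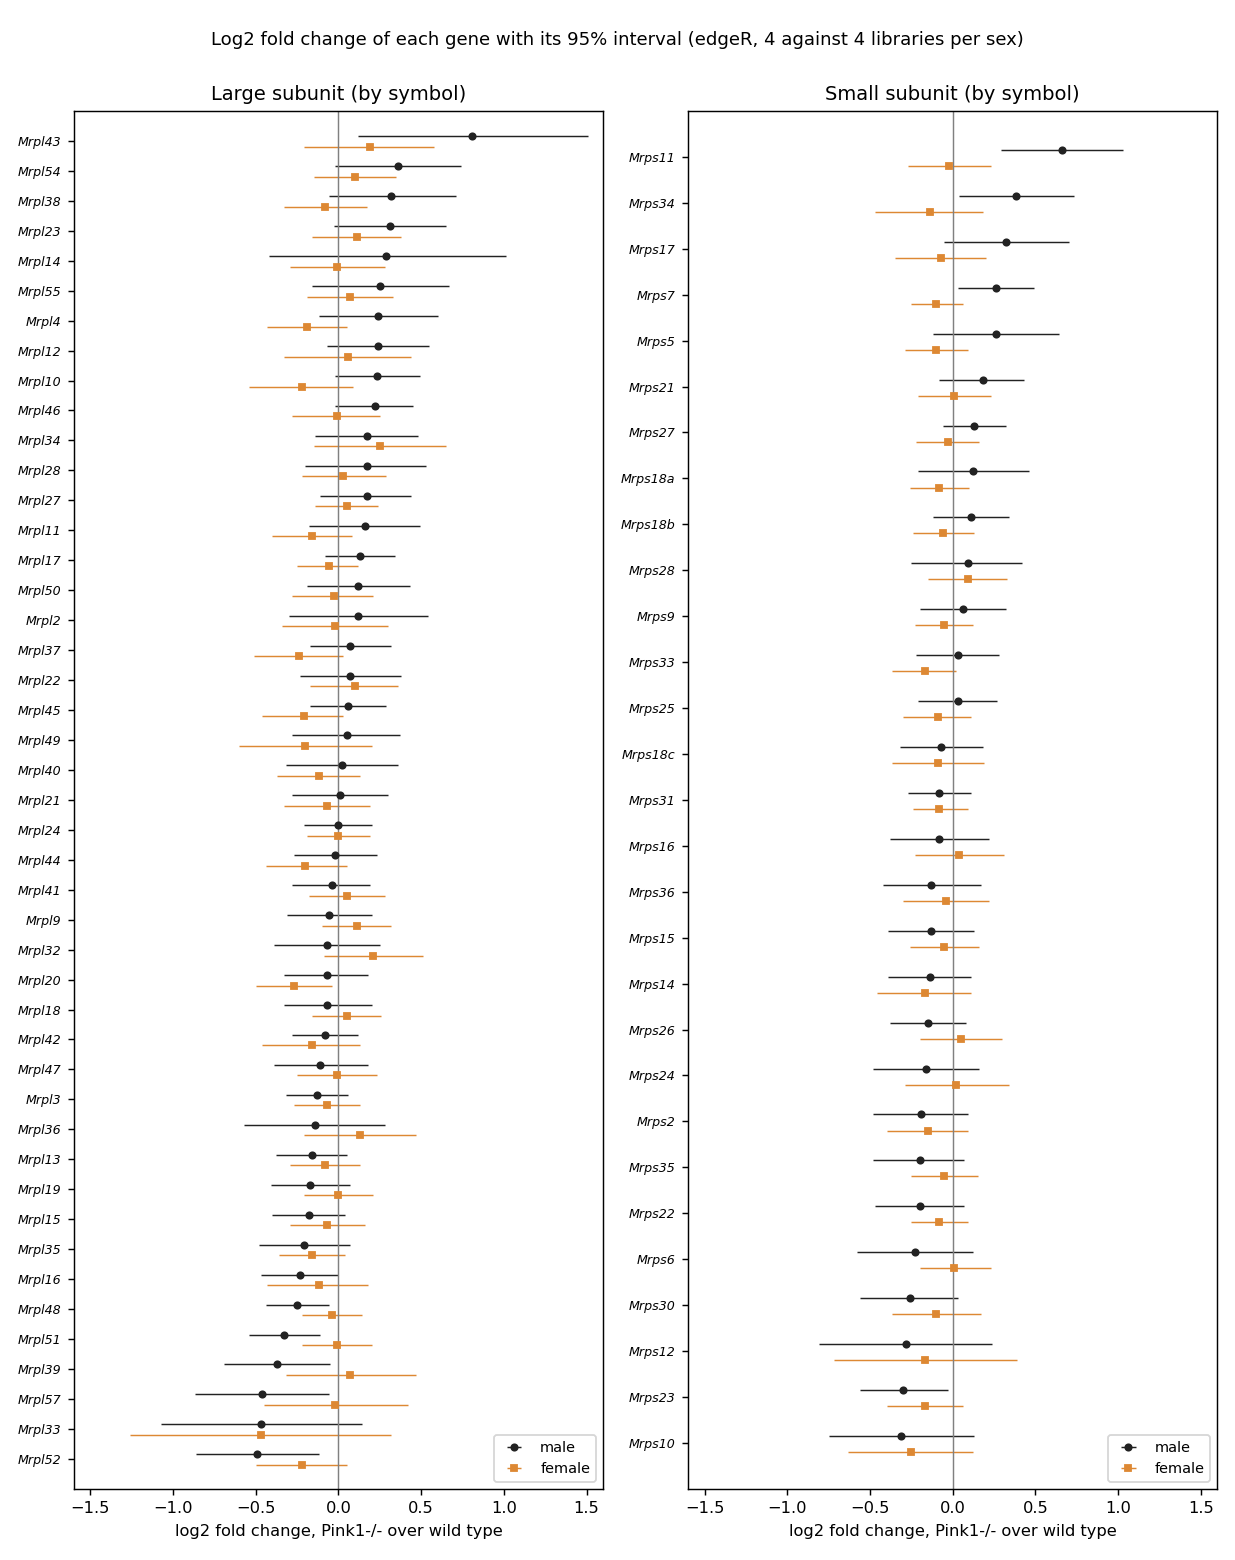
Log2 fold change between Pink1-/- and wild type for each gene with its 95% interval from edgeR (4 against 4 libraries per sex), ordered by the male value; large subunit left, small subunit right, males black circles, females orange squares. Most intervals cross 0, and the widest belong to Mrpl43, Mrpl33 and Mrpl14.

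Among the male small-subunit genes Mrps11 (ENSRNOG00000018531), which has a counterpart in the bacterial small subunit, stood closest to the threshold. Its level was 3.22, 3.68, 3.07 and 3.88 CPM in wild-type animals 20, 22, 23 and 24, and 6.74, 4.52, 4.82 and 5.77 CPM in Pink1-/- animals 17, 18, 19 and 25. Every Pink1-/- library lay above every wild-type one, with 37 to 51 counts behind the wild-type values and 51 to 99 behind the others. The log2 fold change was 0.66 (SE 0.17, interval 0.29 to 1.03, adjusted p = 0.0602 in edgeR). Without Pink1-/- animal 17, the highest library, it was 0.54 with an adjusted p of 0.134. The adjusted p was 0.0427 with DESeq2 and 0.0184 with the likelihood ratio test of edgeR. The authors' deposited table lists Mrps11 as UP with a log2 fold change of 0.66 and a false discovery rate of 0.0256, the single member among the 6.21% of genes marked UP or DOWN there.

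The other member whose male Pink1-/- libraries all lay higher was Mrpl46, a large-subunit protein found only in mitochondria. Wild-type animals 20, 22, 23 and 24 had 7.95, 9.30, 9.30 and 9.43 CPM, and Pink1-/- animals 17, 18, 19 and 25 had 11.2, 9.89, 10.2 and 10.5 CPM. The groups were close but did not overlap, and the log2 fold change of 0.22 (SE 0.11) had an adjusted p of 0.223 in edgeR. Mrpl46 and Mrps11 are neighbours on chromosome 1 that start in opposite directions 234 bases apart. That they were the 2 male members higher without overlap (7.15% of all genes were) was seen before the pair was picked out, so it is given as a description.

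Of the 59 members with a RefSeq promoter entry, 11 had another gene start within 250 bases on the opposite strand. That is 18.6%, beside 3.68% of 19005 protein-coding genes. The sequences between some of these paired starts are therefore shown. They come from RefSeq on the GRCr8 build, plus strand, from the first listed start of each gene. In the first pair the region is chr1:142117031-142117263; in the second, between the condensin gene Ncapd2 and Mrpl51, chr4:159677939-159677987; in the third, between the proteasome gene Psma2 and Mrpl32, chr17:55260442-55260650; in the fourth, between Ptcd2 and Mrps27, chr2:32474114-32474203. Capitals mark a match to the NRF1 motif in the third, searched as the letters capitalised there with any base allowed at the fifth position, and to the ETS motif CCGGAAG, here on the minus strand, in the fourth.
Mrpl46 to Mrps11: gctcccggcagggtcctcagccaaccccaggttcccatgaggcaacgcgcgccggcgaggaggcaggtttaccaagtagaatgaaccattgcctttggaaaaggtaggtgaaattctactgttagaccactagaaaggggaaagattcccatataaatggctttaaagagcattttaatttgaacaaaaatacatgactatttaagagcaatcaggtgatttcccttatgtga
Ncapd2 to Mrpl51: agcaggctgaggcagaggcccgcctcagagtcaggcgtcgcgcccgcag
Psma2 to Mrpl32: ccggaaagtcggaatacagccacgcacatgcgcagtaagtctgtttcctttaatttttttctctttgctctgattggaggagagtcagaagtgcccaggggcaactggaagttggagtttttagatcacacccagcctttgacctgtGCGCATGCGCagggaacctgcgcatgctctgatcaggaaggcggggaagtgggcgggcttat
Ptcd2 to Mrps27: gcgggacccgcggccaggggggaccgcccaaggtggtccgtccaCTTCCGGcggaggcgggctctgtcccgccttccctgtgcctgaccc

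The regions between Mrpl46 and Mrps11 and between Ncapd2 and Mrpl51 hold no match to the NRF1, ETS or YY1 motif letters. The regions not printed, beside Mrpl27, Mrpl37, Mrpl40, Mrpl47, Mrpl49 and Mrps18c, hold none either. Only the regions beside Mrpl32 and Mrps27 do, so such matches are rarer among all the paired regions than among the printed ones. The longer window searched for Mrpl46, from 250 bases before to 50 after its start, does hold a YY1 match. RefSeq places the first base of the Mrps11 gene at 142117045, inside the printed region, and the last base of Mrpl46 at 142117030, so the 2 annotated genes do not overlap on this build. The sources used here give neither the annotation behind the counts nor their strand setting. The partner of Mrpl51 had a male log2 fold change of 0.35 (adjusted p = 0.166 in edgeR), Psma2 one of -0.20 (0.227) and Ptcd2 one of -0.12 (0.74), while Mrpl32 had -0.07 (0.77) and Mrps27 0.13 (0.365).

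Over windows from 250 bases before to 50 after the start, searched on both strands, the NRF1 letters occurred in 9 of 59 members (15.3%) and in 6.09% of protein-coding promoters. The ETS letters occurred in 18 (30.5%, beside 11.2%) and the YY1 letters AAGATGG in 16 (27.1%, beside 7.58%). The CCAAT box was found in 24 (40.7%, beside 38.4%), the GC box GGGCGG in 28 (47.5%, beside 43.1%) and TATAAA in 7 (11.9%, beside 13.1%). The windows of Mrps11 and Mrpl46 are among the last, and both contain the TATAAA of the region printed between them, which is counted for each gene. The median GC content was 55.7% in members and 55.3% in protein-coding promoters. A match describes the letters of the window and is not a bound site.

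On the large subunit the male members of smallest p were 6 genes of the mitochondria-specific class, 1 with a higher and 5 with a lower mean. Mrpl51 had 34.4, 33.9, 41.8 and 36.3 CPM in wild-type animals 20, 22, 23 and 24 and 25.3, 32.0, 28.1 and 31.2 CPM in Pink1-/- animals 17, 18, 19 and 25. All 4 Pink1-/- libraries were lower, with a log2 fold change of -0.33 (SE 0.10, adjusted p = 0.0838 in edgeR). Mrpl48 had 32.3, 34.8, 37.9 and 31.2 CPM against 27.2, 30.4, 26.7 and 30.2 CPM, again without overlap, and a log2 fold change of -0.25 (adjusted p = 0.115 in edgeR).

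Mrpl52 averaged 6.13 ± 0.404 CPM (SD, n = 4) in male wild type and 4.36 ± 1.01 CPM in Pink1-/- animals, overlapping through Pink1-/- animal 18 at 5.69 CPM (adjusted p = 0.113 in edgeR). Mrpl39 and Mrpl57 had log2 fold changes of -0.37 and -0.46 with adjusted p-values of 0.146 and 0.147. Mrpl43 was the gene with the highest male value, 0.81 (interval 0.12 to 1.51, adjusted p = 0.143). Its level was 1.10, 1.35, 0.83 and 1.37 CPM in wild-type and 3.20, 1.40, 1.32 and 2.16 CPM in Pink1-/- animals, so the groups overlapped and animal 17 was the highest library. Without animal 17 the log2 fold change was 0.49 (adjusted p = 0.398 in edgeR). Behind these values stood 10 to 18 and 14 to 47 counts per library.

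With Mrpl51 and Mrpl48, the third male member lower without overlap was Mrpl16 (3 of 74, beside 8.04% of all genes), a large-subunit protein with a bacterial counterpart, at 9.52 ± 0.36 CPM (SD, n = 4) and 8.12 ± 0.583 CPM (log2 fold change -0.23, adjusted p = 0.194 in edgeR). Of the 28 large-subunit genes with bacterial counterparts none had an unadjusted p under 0.05 and their median log2 fold change was 0.00, whereas the 17 mitochondria-specific ones included 6 (35.3%, beside 26.2% of all genes) around a median of 0.02. The difference between the classes was not tested.

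**Figure D3:**
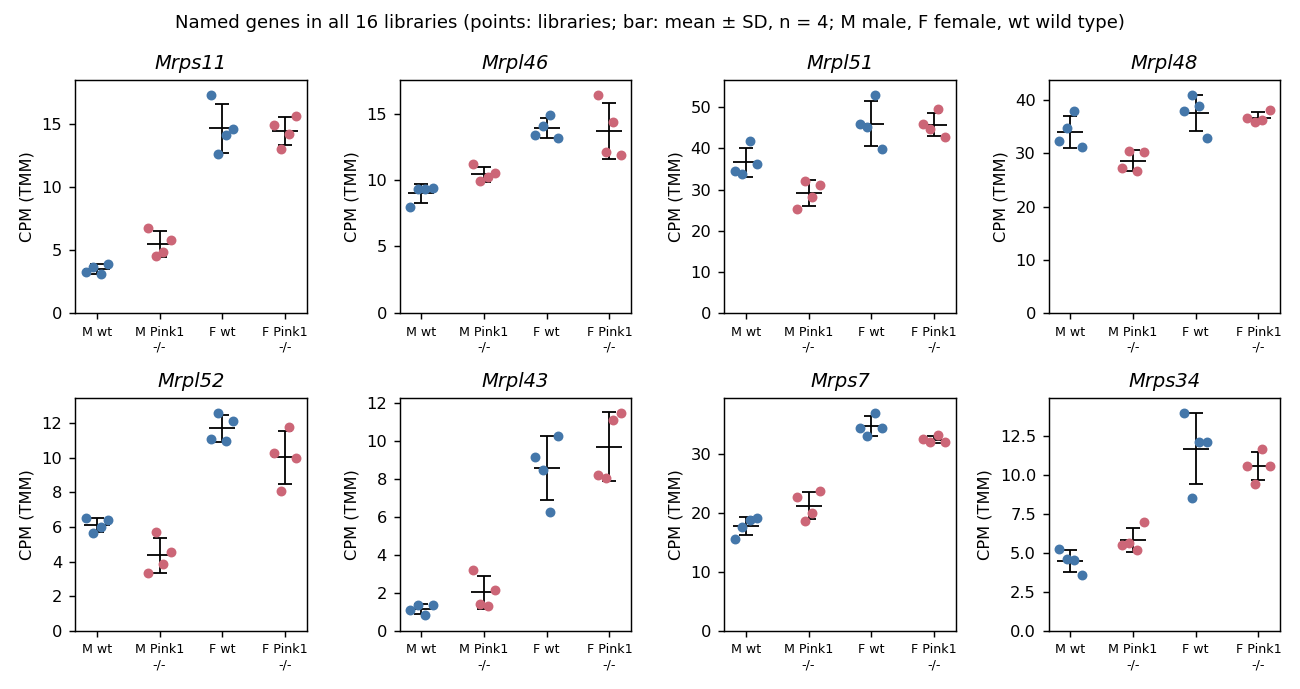
TMM-scaled CPM of 8 members in all 16 libraries; points are libraries (blue wild type, red Pink1-/-), bars the mean and SD of n = 4, M male and F female. In males Mrps11 and Mrpl46 are higher and Mrpl51 and Mrpl48 lower in every Pink1-/- library, and in females the groups overlap for these 4 genes.

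Further small-subunit genes in males had values in both directions, none of which passed. Mrps7, with a bacterial counterpart, had 15.6 to 19.1 CPM in wild-type and 18.5 to 23.6 CPM in Pink1-/- libraries (log2 fold change 0.26, adjusted p = 0.155 in edgeR). Mrps34, found only in mitochondria, had values of 3.57 to 5.25 and 5.2 to 7 CPM (0.38, adjusted p = 0.156). Mrps23, also mitochondria-specific, had the opposite sign, at 12.1 to 14.9 and 9.03 to 12.5 CPM (-0.30, adjusted p = 0.152). Mrps17 had a log2 fold change of 0.32 (adjusted p = 0.246). All 4 pairs of ranges overlapped.

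Some names mislead about where a protein sits. The 3 paralogs Mrps18a, Mrps18b and Mrps18c had male log2 fold changes of 0.12, 0.11 and -0.07, and female ones of -0.08, -0.06 and -0.09. Mrps18a and Mrps30 lie in the large subunit of the solved ribosome. Mrps30 had a male log2 fold change of -0.26 (adjusted p = 0.236 in edgeR) and a female one of -0.10. Mrps36, since recognised as a component of the 2-oxoglutarate dehydrogenase complex, had -0.13 and -0.04. Counting these 2 genes with the large subunit left its male median at 0.01.

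In females no member passed either, in a comparison where 0.059% of 15265 genes were called with edgeR, and the smallest adjusted p of a member was 0.993. DESeq2 and the likelihood ratio test called 0 members as well. Only Mrpl20 had an unadjusted p under 0.05, which is 1.35% of members beside 4.64% of all genes. The log2 fold changes lay mostly on 1 side: 53 of 74 (71.6%) were below 0, beside 49.7% of all genes. They were small, with a median of -0.02 in the large and -0.08 in the small subunit beside 0.00 for all genes. Scaled by library totals alone, the median of all members was -0.01 and that of all genes 0.05, in place of -0.06 and 0.00. Of the 10 mitochondria-specific small-subunit genes 9 were below 0, with a median of -0.08.

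Mrpl20, a large-subunit protein with a bacterial counterpart, had 20.8, 22.4, 24.9 and 19.1 CPM in wild-type animals 64, 111, 504 and 980. It had 18.1, 17.5, 16.5 and 20.3 CPM in Pink1-/- animals 548, 602, 736 and 983. The groups overlapped through animals 980 and 983, and the log2 fold change was -0.27 (SE 0.11, adjusted p = 0.993 in edgeR). The other large-subunit genes of smallest p were Mrpl37, Mrpl45, Mrpl35, Mrpl44 and Mrpl4, with log2 fold changes of -0.24, -0.21, -0.16, -0.20 and -0.19. Mrpl33 had the lowest value, -0.47, with few counts behind it. Among the small-subunit genes of smallest p, Mrps10, Mrps23, Mrps14 and Mrps2 had -0.25, -0.17, -0.17 and -0.15, and Mrps7, among the higher male values, had -0.10.

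The female libraries did not overlap for 3 members, all lower, or 4.05% beside 3.38% of all genes (1.76% lower). Mrpl35 had 18.3, 19.1, 21.1 and 18.5 CPM in wild type and 17.4, 18.2, 17.8 and 15.5 CPM in Pink1-/- libraries, a narrow gap. Mrps33 had 14.7, 14.2, 14.9 and 13.4 CPM against 12.2, 13.3, 12.2 and 13.1 CPM. Mrps22 had 18.7 to 20.8 CPM against 18.0 to 18.6 CPM. Their log2 fold changes were -0.16, -0.17 and -0.08, none past the threshold.

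The female intervals were narrower. For 73 of 74 members the interval stayed within a 2-fold change (88.4% of all genes) and for 69 within 1.5-fold (70.7%). The exception to the wider limit was Mrpl33, with 5 to 19 counts per library and an interval of -1.26 to 0.32. The authors' deposited table marks 0 of its 73 members in females, where 0.425% of genes are UP or DOWN.

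Whether the genotype difference itself differed between the sexes was tested as an interaction over all 16 libraries, given as the female effect minus the male effect. Each sex came from its own table, so in this test too sex and processing cannot be told apart. No member passed, in a test that called 0.0798% of 15042 genes with edgeR, and the smallest adjusted p of a member was 0.205. DESeq2 and the likelihood ratio test called 0 members here too. The value of 0.205 belonged to Mrps11, with a difference of -0.68 (SE 0.19, interval -1.08 to -0.27), since its female levels were 17.3, 12.6, 14.1 and 14.6 CPM in wild type and 14.9, 13, 14.2 and 15.6 CPM in Pink1-/- animals. Mrps7 (-0.35), Mrpl10 (-0.45), Mrps34 (-0.52) and Mrpl51 (0.32) also had an unadjusted p under 0.05, so that 5 of 74 members (6.76%) did, beside 14% of all genes.

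Levels differed between the 2 tables, which were normalized separately and in which sex and processing cannot be told apart. The female mean was above the male one by a median of 0.48 on the log2 scale, from -1.24 for Mrpl42 to 2.68 for Mrpl14. This ratio was not computed over all genes, so it is not a trait shown to be particular to the members. Mrpl14 had a mean of 1.38 CPM in males and 8.82 CPM in females, Mrpl43 had 1.59 and 9.15 CPM, and Mrps11 had 4.46 and 14.6 CPM. Each of these genes had no overlap between its male and female ranges, and the share of all genes without such overlap was not computed. Set beside the male fold changes, Mrpl43 and Mrps11 combined a high ratio with the highest male values, 0.81 and 0.66, whereas Mrpl52 had a ratio of 1.05 and the lowest male value, -0.49. Over all 74 members the Spearman correlation of the 2 quantities was 0.496. Of the 10 members with the highest ratio 9 had a male log2 fold change above 0 (median 0.27). Of the 10 with the lowest ratio 2 did (median -0.11). The same male libraries enter both quantities, and the level that defined the set was taken from the same means, so the plot of one against the other is a description without a test. Mrpl33, at a ratio of -1.14, entered the set only through its male level.

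**Figure D4:**
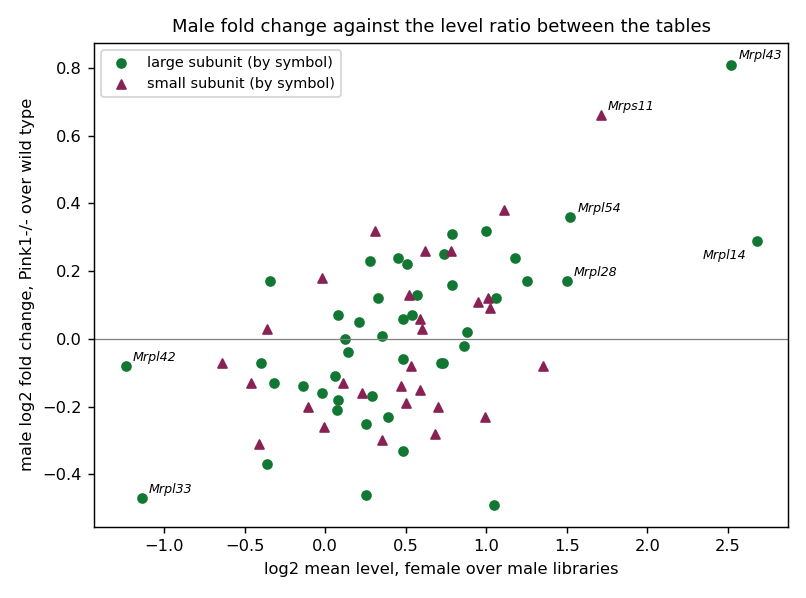
Male log2 fold change between the genotypes (y axis) against the log2 ratio of the mean level in female over male libraries (x axis) for the 74 genes; circles large subunit, triangles small subunit. Mrpl43 and Mrps11 lie at the upper right, and Mrpl52, with the lowest male value of -0.49, lies at a ratio of 1.05. Over all 74 genes the Spearman correlation is 0.496. The male libraries enter both axes.

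Genes that serve the mitochondrial ribosome showed 1 call. Of 22 assembly and rRNA processing factors, Eral1, a chaperone of the small-subunit rRNA, fell in males from 9.91 ± 0.895 CPM (SD, n = 4) to 6.87 ± 0.648 CPM. Its log2 fold change was -0.53 (SE 0.12, adjusted p = 0.0472 in edgeR), and 1.22% of all genes fell. Leaving out any single male library raised its adjusted p to between 0.0676 and 0.135. In females it had 10.2 ± 2.13 and 9.58 ± 0.8 CPM. Rbfa, a maturation factor of the small subunit, had 3.49 to 4.56 CPM in male wild type and 4.82 to 8.44 CPM in Pink1-/- animals without passing (0.75, adjusted p = 0.061). Of the 22 factors 7 had an unadjusted p under 0.05 in males, 4 higher and 3 lower (31.8%, beside 26.2% of all genes). In females 1 did (4.55%, beside 4.64%).

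None of 15 mitochondrial translation factors, 17 mitochondrial aminoacyl-tRNA synthetases or 5 ribosomal proteins with other symbols passed in either sex with edgeR. At an unadjusted p under 0.05 there were 5, 3 and 3 of them in males (33.3%, 17.6% and 60%, beside 26.2% of all genes) and 1, 0 and 0 in females (4.64% of all genes). In males, Oxa1l, which inserts newly made proteins into the inner membrane, had 12.2 to 15.7 CPM in wild type and 16.7 to 21.7 CPM in Pink1-/- libraries (0.45, adjusted p = 0.0642 in edgeR). The elongation factor Gfm1 had 53.4 to 59.9 and 41.4 to 51.6 CPM (-0.28, adjusted p = 0.0811), and the asparaginyl-tRNA synthetase Nars2 had 7.58 to 9.30 and 5.48 to 6.46 CPM (-0.48, adjusted p = 0.064). Ptcd3 (-0.25) and Chchd1 (-0.30), small-subunit proteins, and Gadd45gip1 (0.35), a large-subunit one, were the other-symbol members with an unadjusted p under 0.05. In females Lrpprc, which stabilises mitochondrial mRNAs, had 142 to 170 CPM in wild type and 132 to 138 CPM in Pink1-/- libraries (-0.24, adjusted p = 0.735).

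None of the 13 mRNAs that this ribosome reads passed the threshold. In females the median log2 fold change was -0.50, 12 of 13 had an unadjusted p under 0.05 and 10 did not overlap, beside 4.64% and 3.38% of all genes. Mt-nd1, a subunit of complex I, had 2510 to 2820 CPM in female wild type and 1080 to 2190 CPM in Pink1-/- libraries (-0.63, adjusted p = 0.682 in edgeR). Mt-co1, a subunit of cytochrome c oxidase, had 19300 to 21500 and 15400 to 18400 CPM (-0.26, adjusted p = 0.993). Pink1-/- animal 548 also had the lowest share of mitochondrial clone loci in females, at 1.77%, and without it the median was -0.33. In males the median was -0.21, and -0.04 without Pink1-/- animal 17. With all male libraries 1 of the 13 had an unadjusted p under 0.05 (7.69%, beside 26.2% of all genes). These 13 genes share the mitochondrial genome and are not independent of each other.

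**Figure D5:**
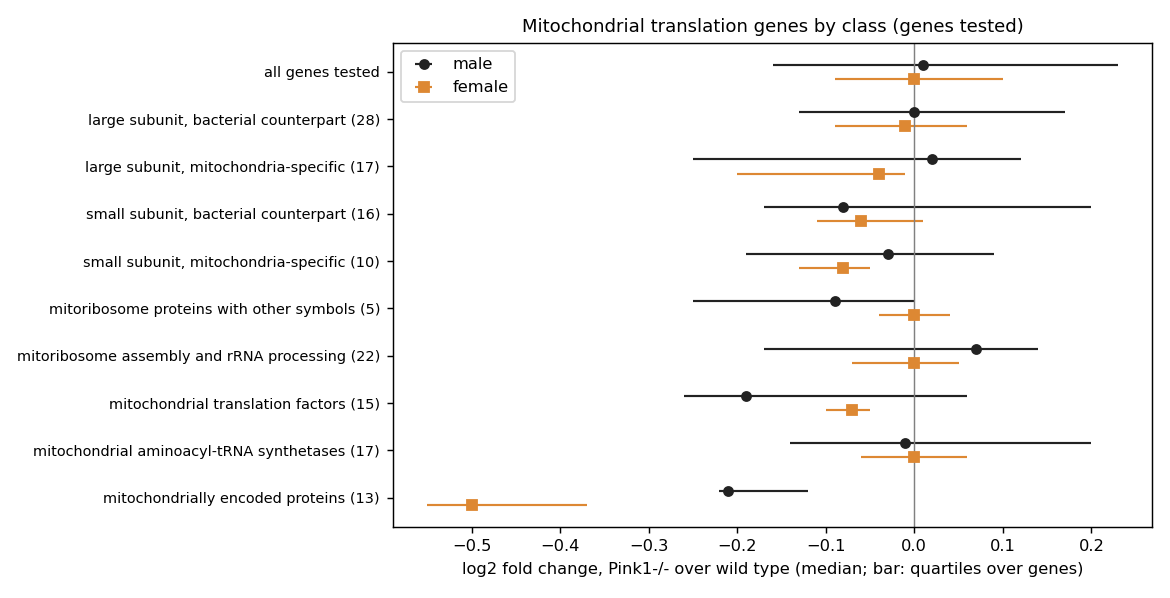
Median log2 fold change between Pink1-/- and wild type by class, with bars spanning the quartiles over genes and the number of genes in brackets; males black, females orange. The 4 classes of ribosomal protein genes lie between -0.08 and 0.02, and the mitochondrially encoded mRNAs at -0.21 in males and -0.50 in females.

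Just inside and outside the level that defined the set stood 3 genes. Mrpl33 passed only through the male table, with 1.21 CPM against 0.546 CPM in females. Mrpl1 missed it with 0.517 and 0.881 CPM, was at 0 in 8 of 16 libraries and reached 89 counts in female wild-type animal 64. Mrpl14 passed with 1.39 and 8.82 CPM. The remaining 2 symbols, Mrps21l and Mrpl53, were at 0 counts in all 16 libraries. The genes at the ends of the CPM range are named for their count depth, since CPM mixes a gene's level with its transcript length and does not order the genes by expression. At the lower end of the CPM range Mrps12, a protein of the decoding centre, had a male log2 fold change of -0.28 (2.66 and 2.16 CPM) and Mrps24 -0.16 (4.56 and 4.09 CPM), and in females Mrpl34 had 0.25 (3.73 and 4.46 CPM). At the upper end Mrps22 had -0.20 in males (21.7 and 19 CPM), and Mrps15 had -0.13 in males (31.5 and 28.9 CPM) and -0.05 in females (33.1 and 32 CPM), none past the threshold. Within a group the median coefficient of variation of the members was 10.6% and 12.6% in male wild type and Pink1-/- libraries and 10.9% and 7.94% in the female ones. The median member had a mean of 127 and 134 counts per male library and 321 and 293 per female library in the same order.

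A microglial and a vascular marker were called in the male comparison. P2ry12, a microglial receptor, rose from 8.49 ± 1.35 to 12.9 ± 1.44 CPM (SD, n = 4, adjusted p = 0.0465 in edgeR), 1 of 6 tested microglial markers called, where 1.08% of all genes rose. At an unadjusted p under 0.05 there were 3 of these 6, in both directions: P2ry12, C1qa (log2 fold change 0.62, adjusted p = 0.117) and Aif1 (-0.48, adjusted p = 0.177), while Csf1r, Cx3cr1 and Tmem119 had 0.14, 0.21 and 0.05. Pdgfrb, of vascular mural cells, rose from 14.5 ± 2.43 to 21.7 ± 1.23 CPM (adjusted p = 0.0318), 1 of 4 vascular markers, while Cldn5, Flt1 and Vtn had 0.22, -0.08 and 0.00. The summed microglial level was 66.7 to 99.2 CPM in male wild type and 83.5 to 106 CPM in Pink1-/- libraries, and the summed vascular level 125 to 138 and 126 to 142 CPM. No neuronal, oligodendrocyte or astrocyte marker was called in either sex with edgeR, where an unadjusted p under 0.05 was found for 3 of 7, 2 of 6 and 1 of 5 in males (26.2% of all genes) and 0, 1 and 1 in females (4.64% of all genes). Their part in the values above was not tested.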

How the data were processed

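RNA of dissected brain was sequenced in 16 libraries. The authors deposited 1 table per sex of estimated counts per gene, whole numbers made with RSEM (no version stated), per the submitters' processing notes, which also name edgeR 3.9. RSEM divides reads between similar sequences, so paralogs are uncertain. The sources used here state no aligner, annotation or strand setting. The authors' deposited comparison tables hold, per the file headers, per gene the log2 fold change, the log2 mean CPM, the score of a likelihood ratio test, its p-value and the false discovery rate.

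The deposited counts were used as they stand. Columns were matched to animals by number (0 unused). Genes were filtered with filterByExpr (minimum count 10, minimum total 15), scaled by TMM and tested per sex by quasi-likelihood F-tests (edgeR 4.0.16, R 4.3.3), with Benjamini-Hochberg adjustment over all genes and a call at 0.05. Each SE was derived from the fold change and its F statistic. The interaction used all 16 libraries. DESeq2 1.42.0 and other settings were alternatives. The fits were tested on simulated counts with the same dispersion for every gene and no difference in composition between libraries, unlike the deposited counts. CPM is TMM-scaled, so it rests on the other genes of the library.

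Members and lists were chosen with earlier results of these data known. Named genes were the 6 large-subunit and 6 small-subunit members of smallest p in each table, the 2 highest and 2 lowest of each subunit, misleadingly named members, and called list genes or else the 2 of smallest p. Members were also named for groups that do not overlap and for the interaction, after their values were seen. RefSeq GRCr8 promoters matched 59 of 74 members.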

Additional observations from a re-analysis of the deposited data

Results flagged for a closer look

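Within groups of 4 libraries, 1 library stood far from the other 3 in 3 of 62 groups examined. A chance rate of about 1 in 20 holds for independent groups not picked by their values. Most of these groups were picked for a small p, so their own chance rate is not known. Mrpl46 was lowest in male wild-type animal 20, at 7.95 CPM, with the other 3 at 9.30 to 9.43 CPM. Mrps30 was highest in male wild-type animal 23, at 15.6 CPM, beside 11.9 to 12.2 CPM. The summed large-subunit level was highest in female wild-type animal 504, at 759 CPM, beside 681 to 694 CPM.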

How the results depend on the processing

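The count of male members called, 0, became 2 at an adjusted p of 0.10 (Mrps11 and Mrpl51), and 1 with DESeq2, 1 with the likelihood ratio test of edgeR and 1 with all 16 libraries in one fit, each time Mrps11 (adjusted p 0.0427, 0.0184 and 0.0284). With each male library left out it was 0 throughout, with a smallest adjusted p of 0.0676 to 0.167. Over 18 alternatives the male log2 fold change of Mrps11 ran from 0.49 to 0.74 and its adjusted p from 0.0184 to 0.25. No member was called in females or in the interaction under any alternative run.

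Over all genes, the 317 male calls became 1219 at an adjusted p of 0.10, 168 with library totals only, 523 without a filter, 853 with DESeq2, 957 with the likelihood ratio test, 609 with all 16 libraries in one fit, 153 without Pink1-/- 17 and wild type 23, and 98 to 217 with 1 library left out. Of the reported male calls 47% were higher, a share of 60.4% without a filter, 57.9% with the likelihood ratio test and 58.3% with all 16 libraries. The 9 female calls became 58, 49 and 17 with DESeq2, the likelihood ratio test and all 16 libraries, and 7 to 16 with 1 left out. The 12 interaction calls became 29 at 0.10, 3 with library totals only, 19 without loci over 1% of a library, 19 without a filter, 21 at a mean CPM of at least 1, 122 with DESeq2, 95 with the likelihood ratio test, 7 without the pair of male libraries and 3 to 13 with 1 left out.

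The male small-subunit median of -0.08 was -0.01 without that pair. With 1 library left out the medians were -0.03 to 0.03 (large) and -0.08 to -0.05 (small) in males and -0.06 to -0.01 and -0.10 to -0.05 in females. Without Pink1-/- 17, wild type 23 or both (added after seeing the data), 7, 9 and 7 of 74 male members had an unadjusted p under 0.05. Over all genes the shares in the same fits were 17.7%, 17.4% and 13.9%, beside 26.2% with all male libraries. The cause of these changes was not tested. No paired analysis was possible because the groups share no animal numbers. Depth limits the lowest genes: Mrpl33, Mrpl14 and Mrpl43 were among those that rested on under 50 counts per male library.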
